A study of Mus musculus with 4 samples.

Results

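The genes described here are 10 inflammatory cytokine genes, Il1a, Il1b, Il1rn, Tnf, Il6, Il10, Il15, Il18, Osm and Tgfb1, taken by symbol from the 34745 genes of an RNA-seq experiment on cultured mouse macrophages. All 10 had counts, and 9 of the 10 passed the filter on low counts that left 12418 genes for testing, with Il10 below it. There were 4 libraries, 2 per genotype, numbered 1 and 2 within each genotype. WT libraries came from G3bp1f/f mice, in which the G3bp1 gene is flanked by loxP sites, and KO libraries from G3bp1mac-/- mice, in which Cre recombinase driven by the Lyz2 promoter acts on this floxed gene in myeloid cells. Per the study's text the cells were bone marrow-derived macrophages (BMDM). No stimulus and no age of the mice is given for these libraries, and the sources used here do not say whether same-numbered cells were prepared together. G3BP1 is an RNA-binding scaffold protein of stress granules, cytoplasmic condensates that hold untranslated mRNA. The comparison asked which transcripts differed between the 2 genotypes.

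Macrophages are a main source of cytokines. TNF and both forms of IL-1 are early messengers of inflammation: their genes are nearly silent in resting macrophages and are switched on within a short time by microbial products through NF-kB and AP-1, and AU-rich elements then keep the mRNAs short-lived. IL-6 and oncostatin M (OSM) signal through receptors that share the gp130 chain. IL-1 receptor antagonist (Il1rn) and IL-10 restrain inflammation, IL-15 and IL-18 act on lymphocytes and natural killer (NK) cells, and TGF-beta 1 is made as a latent precursor that has to be released from its complex.

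The deposited totals were between 16724241 and 19747909 counts per library. Macrophage genes were strongly expressed in all libraries: all 14 macrophage markers had counts, and their summed level was 28050 and 26430 CPM (counts per 1000000 of the library total after scaling by TMM, the trimmed mean of M values) in WT and 22280 and 26150 CPM in KO, with Lyz2, Cd68, Adgre1 and C1qb the most abundant. G3bp1 itself had counts of 1691 and 2875 for WT and of 1307 and 2296 for KO, and its log2 fold change of -0.61 (SE 0.40, n = 2 per genotype) was not past the test (edgeR quasi-likelihood, adjusted p = 0.904). Counts per gene do not show which exons were covered, so this value leaves the deletion unchecked in these libraries. The study itself reports an efficient loss of G3BP1 in macrophages of this genotype, from mRNA and protein measurements in BMDM. The libraries numbered 2 stood apart from those numbered 1 in both genotypes. Of all tested genes 225, or 1.81%, were more than 4-fold higher in number 2 than in number 1 in both WT and KO, and several of the cytokine genes are among them, so each gene is given below by library. The numbers 1 and 2 are names from the labels, with no meaning given.

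To show the DNA from which these genes are transcribed, the 250 bases before the RefSeq start of 5 of them are printed below. Tnf, Il1a, Il1b and Il6 are the genes that differed most between the numbers, and Tgfb1 is a member that differed little. The RefSeq windows (build GRCm38.p6) are chr17:35202008-35202257 for Tnf, chr2:129309973-129310222 for Il1a and chr2:129371140-129371389 for Il1b, all on the minus strand, and chr5:30012864-30013113 for Il6 and chr7:25686752-25687001 for Tgfb1, both on the plus strand. Capitals mark matches, searched on both strands and not overlapping each other, to TATAAA, to the AP-1 motif TGANTCA, to the C/EBP motif TTNNGCAA and to the NF-kB motif.
Tnf: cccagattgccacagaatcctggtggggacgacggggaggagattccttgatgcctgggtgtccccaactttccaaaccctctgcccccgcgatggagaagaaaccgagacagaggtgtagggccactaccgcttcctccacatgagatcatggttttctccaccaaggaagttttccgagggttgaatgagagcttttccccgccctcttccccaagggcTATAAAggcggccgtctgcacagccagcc
Il1a: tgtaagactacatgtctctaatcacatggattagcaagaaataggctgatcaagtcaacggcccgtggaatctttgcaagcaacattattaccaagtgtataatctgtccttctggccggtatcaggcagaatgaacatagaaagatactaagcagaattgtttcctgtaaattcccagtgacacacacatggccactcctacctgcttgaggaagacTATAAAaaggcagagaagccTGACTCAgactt
Il1b: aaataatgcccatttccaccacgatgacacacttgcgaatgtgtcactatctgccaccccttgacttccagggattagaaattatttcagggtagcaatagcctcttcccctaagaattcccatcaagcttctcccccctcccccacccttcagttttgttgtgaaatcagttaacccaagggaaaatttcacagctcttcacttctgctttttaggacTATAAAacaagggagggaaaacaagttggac
Il6: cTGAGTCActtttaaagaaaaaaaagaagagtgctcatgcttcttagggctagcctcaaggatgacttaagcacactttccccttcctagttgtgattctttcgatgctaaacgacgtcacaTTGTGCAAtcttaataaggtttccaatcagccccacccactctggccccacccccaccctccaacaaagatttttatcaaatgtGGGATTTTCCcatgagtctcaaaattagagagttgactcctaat
Tgfb1: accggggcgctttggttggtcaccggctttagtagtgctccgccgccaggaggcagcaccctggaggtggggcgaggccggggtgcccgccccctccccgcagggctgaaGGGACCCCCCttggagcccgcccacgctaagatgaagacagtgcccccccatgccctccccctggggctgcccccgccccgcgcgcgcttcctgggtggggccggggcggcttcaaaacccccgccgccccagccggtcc
Tnf, Il1a and Il1b share a TATAAA close to the start, at -29 to -24, -32 to -27 and -31 to -26, and Il1a also holds the AP-1 motif at -12 to -6. Il6 had no TATAAA and held the NF-kB motif at -44 to -35, the C/EBP motif at -128 to -121 and the AP-1 motif at -249 to -243. Tgfb1 held only the NF-kB motif, at -140 to -131, in a window of 75.2% G and C, against 42.4% in Il1a and 57.6% in Tnf. Over all 32851 windows of this length in the RefSeq table, 12.4% held TATAAA, 6.75% the AP-1 motif, 9.56% the C/EBP motif and 7.25% the NF-kB motif. A match describes letters only. Windows were found for 7 of the 10 genes, without Il10, Il15 and Osm.

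The order of the cytokine genes by level depended on the replicate number. On the length-scaled FPKM scale (fragments scaled by gene length and library total), Tnf, Il1a and Il1b were the 3 highest of the 10 in both libraries numbered 2, with 412, 268 and 170 FPKM in WT and 233, 87.4 and 27.9 FPKM in KO. In the libraries numbered 1, Il1a and Tgfb1 led, with 16.9 and 15.1 FPKM in WT and 18.5 and 23.5 FPKM in KO, while Tnf was at 2.36 and 1.92 FPKM and Il1b at 0.050 and 0.0763 FPKM. Tnf thereby ranked 120th and 186th of all genes in the libraries numbered 2 and 6955th and 8186th in those numbered 1. Il1rn (8.12 to 26.4 FPKM over the 4 libraries), Il15 (7.30 to 18.3 FPKM) and Il18 (7.04 to 13.9 FPKM) held the middle in every library. Osm lay between 1.53 and 3.03 FPKM, Il6 between 0.0288 and 1.07 FPKM and Il10 between 0.180 and 0.274 FPKM. By the ranges of the 2 libraries of a genotype, neighbours in the order of mean FPKM overlapped for all pairs except Il18 above Osm and Osm above Il6, in WT and in KO alike. The file's model of Il18 corresponds to a length of 0.714 kb, the shortest of the 10, and starts inside the GENCODE M21 gene. That of Il1rn corresponds to 8.1 kb, the longest, and the order need not hold without length scaling. In WT replicate 1 Il1rn was at 97.5 CPM, above Tgfb1 at 90.4 CPM and Il1a at 34.9 CPM.

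**Figure D1:**
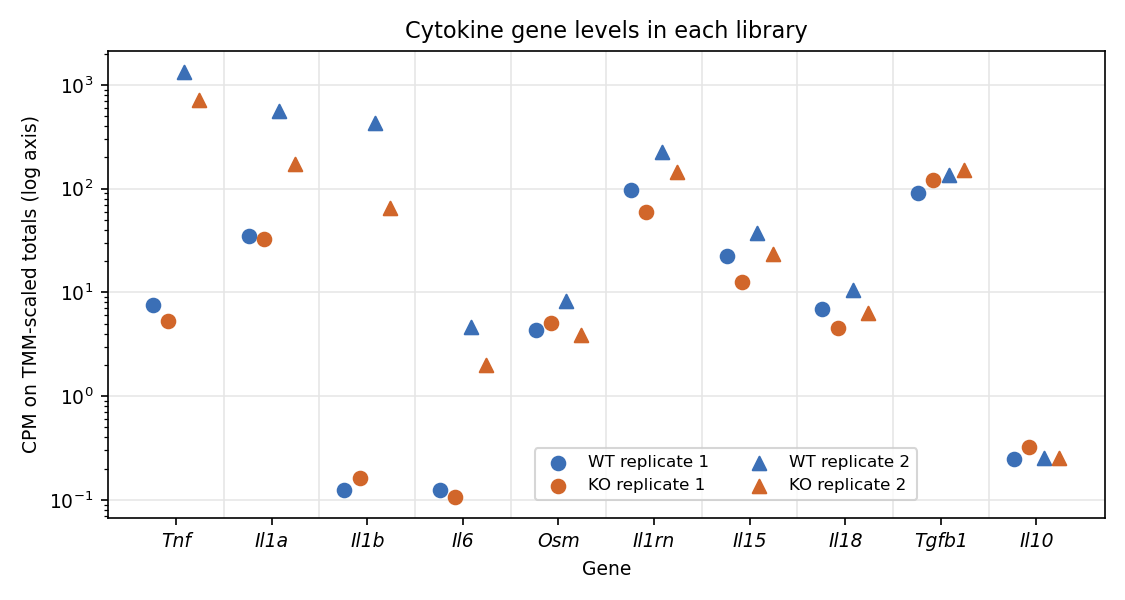
Level of each of the 10 cytokine genes in each library, in CPM on TMM-scaled totals (log axis); circles are replicate 1, triangles replicate 2, blue WT and orange KO. Tnf, Il1a, Il1b and Il6 sit far higher in both libraries numbered 2, with the KO triangle below the WT triangle, and the other genes lie close together.

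Tnf (chr17:35199381-35202007, minus strand), the gene of tumour necrosis factor, had counts of 122 and 21261 for WT and of 98 and 14019 for KO. These are 7.52 and 1333 CPM in WT against 5.26 and 712 CPM in KO, so the genotypes overlapped and the replicate number set whether the gene was low or high. Number 2 was 177-fold above number 1 in WT (95% counting interval 149 to 214) and 135-fold above it in KO (111 to 167), ranks 7 and 11 among all tested genes. Within number 1 KO was at 0.699 of WT (0.530 to 0.920) and within number 2 at 0.534 of WT (0.522 to 0.545). Over the 4 libraries the log2 fold change of KO against WT was -0.90 (SE 2.44, 95% confidence interval -7.09 to 5.28, adjusted p = 0.982). Without WT replicate 2 it was 5.54, and without KO replicate 1 it was 0.09. Leaving out a library sets unequal replicate numbers against each other, so the difference between the numbers enters such values, here and below. Counting intervals cover counting error only and not the spread between cultures.

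Il1a (chr2:129299610-129309972, minus strand) encodes IL-1 alpha, an alarmin that is active without cleavage. It had counts of 567 and 8939 for WT and of 612 and 3408 for KO, or 34.9 and 561 CPM against 32.8 and 173 CPM. In number 1 the genotypes differed by less than the counting error (0.940 of WT, 0.837 to 1.05), while in number 2 KO was at 0.309 of WT (0.297 to 0.321). Number 2 was 16.1-fold above number 1 in WT and 5.27-fold above it in KO. The pooled log2 fold change was -1.53 (SE 1.35, interval -4.96 to 1.90, adjusted p = 0.952), and 1.53 without WT replicate 2.

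Il1b (chr2:129364570-129371139, minus strand) encodes IL-1 beta, whose precursor is cut by caspase-1 in the inflammasome. It had counts of 2 and 6783 for WT and of 3 and 1294 for KO, that is 0.123 and 425 CPM against 0.161 and 65.7 CPM. Il1b had the largest ratio of number 2 to number 1 of all tested genes in WT, 3453-fold (955 to 28510), and the rank was 6 in KO, 408-fold (139 to 1983). Il1b passed the filter on low counts only through number 2, where it is high, so these ranks are descriptive only. With 2 and 3 counts, the ratio between genotypes in number 1 had no useful precision (1.31, interval 0.150 to 15.6). In number 2 KO was at 0.154 of WT (0.145 to 0.164), the lowest ratio among the 10 genes. The pooled log2 fold change of -2.69 had an SE of 2.95 (interval -10.17 to 4.79, adjusted p = 0.962) and became 7.95 without WT replicate 2. An antisense gene, Il1bos, overlaps Il1b, and 15 counts were assigned to it in all 4 libraries together. Gm14023, which overlaps Il1a on the other strand, had 6.

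Il6 (chr5:30013114-30019981, plus strand), an inducer of the acute-phase response, stayed low throughout. It had counts of 2 and 74 for WT and of 2 and 39 for KO, or 0.123 and 4.64 CPM against 0.107 and 1.98 CPM. Number 2 was 37.7-fold above number 1 in WT (10.1 to 317) and 18.5-fold in KO (4.78 to 158). The KO level in number 2 was 0.427 of WT (0.282 to 0.637), and in number 1 the ratio of 0.871 came from 2 counts on each side (interval 0.0631 to 12.0). The pooled log2 fold change was -1.18 (SE 1.62, interval -5.29 to 2.93, adjusted p = 0.965), and without WT replicate 2 it was 2.99.

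Of the 9 tested cytokine genes these 4, Tnf, Il1a, Il1b and Il6, were more than 4-fold higher in number 2 in both genotypes, against the 1.81% of all genes. Il1b and Il6 passed the filter on low counts only through the libraries numbered 2, where they are high. Il1rn came next in both genotypes, at 2.33-fold and 2.44-fold. The median log2 ratio of number 2 to number 1 over the 9 genes was 1.22 in WT and 1.28 in KO, against -0.0030 and -0.0042 over all genes. No test was fixed for the contrast between the numbers, whose meaning the labels do not give, and it is described only.

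**Figure D2:**
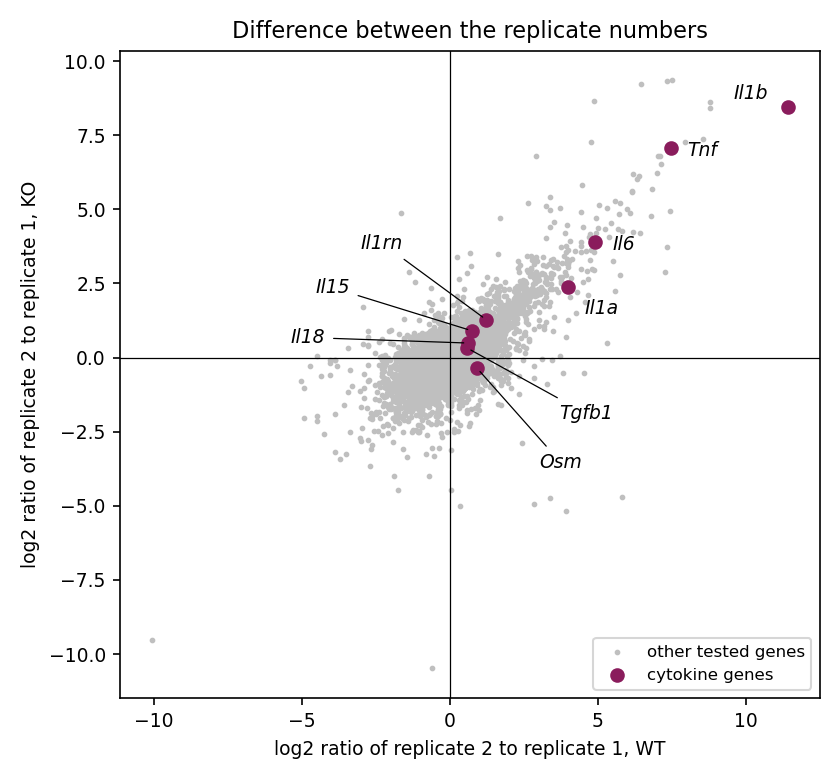
log2 ratio of replicate 2 to replicate 1 in WT (x axis) and in KO (y axis) for every tested gene (grey) and for the 9 tested cytokine genes (purple). Il1b, Tnf, Il6 and Il1a lie far up on both axes, with Il1b at 11.43 in WT and 8.45 in KO, and the other 5 lie near the centre.

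Osm (chr11:4236420-4241026, plus strand), the gene of oncostatin M, had counts of 70 and 131 for WT and of 94 and 77 for KO, or 4.31 and 8.22 CPM against 5.04 and 3.91 CPM. Its order changed with the number: KO was at 1.17 of WT in number 1 (0.849 to 1.62) and at 0.476 of WT in number 2 (0.354 to 0.635). It was the only one of the 9 tested genes that was higher in number 2 in WT (1.91-fold) and not in KO (0.776-fold, interval 0.566 to 1.06). The pooled log2 fold change was -0.48 (SE 0.42, adjusted p = 0.949), and 0.022 without WT replicate 2.

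Il1rn (chr2:24336853-24351494, plus strand) encodes the antagonist that occupies the IL-1 receptor without signalling. It had counts of 1582 and 3624 for WT and of 1100 and 2831 for KO, or 97.5 and 227 CPM against 59.0 and 144 CPM. The KO level was at a similar share of WT in both numbers, 0.605 (0.560 to 0.654) and 0.632 (0.602 to 0.664). The spread between numbers was larger than this, and the genotypes overlapped, with a pooled log2 fold change of -0.68 (SE 0.58, interval -2.16 to 0.80, adjusted p = 0.949). Without WT replicate 2 the value was 0.024. On the FPKM scale Il1rn was above Il1b in the libraries numbered 1 (11.5 FPKM against 0.050 FPKM in WT). It was below Il1b in those numbered 2 (26.4 FPKM against 170 FPKM in WT and 17.7 FPKM against 27.9 FPKM in KO). The order in KO replicate 2 depended on the length scaling, with 8.1 kb for Il1rn against 2.35 kb for Il1b. By counts Il1rn was the higher there, at 2831 against 1294.

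For Il15 and Il18, too, KO was at a similar share of WT in both numbers. Il15 (chr8:82331637-82403222, minus strand), whose product sustains NK cells and memory T cells, had counts of 360 and 590 for WT and of 233 and 462 for KO. Its levels of 22.2 and 37.0 CPM in WT against 12.5 and 23.5 CPM in KO overlapped narrowly, and KO was at 0.563 (0.476 to 0.666) and 0.634 (0.560 to 0.717) of WT within the numbers. The pooled log2 fold change was -0.72 (SE 0.42, interval -1.78 to 0.34, adjusted p = 0.884), and it stayed below 0 without any single library (-1.24 to -0.34). Il18 (chr9:50575273-50581837, plus strand), an inducer of interferon gamma that also needs caspase-1, had counts of 112 and 168 for WT and of 84 and 125 for KO. At 6.90 and 10.5 CPM in WT against 4.51 and 6.35 CPM in KO, it was the only one of the 9 tested genes whose KO libraries both lay below both WT libraries, which 16.9% of all tested genes did. KO was at 0.653 (0.486 to 0.874) and 0.602 (0.474 to 0.764) of WT, and the log2 fold change was -0.68 (SE 0.36, interval -1.60 to 0.24, adjusted p = 0.854), or -0.30 with a gene length correction and -0.38 without WT replicate 2.

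Genes of the interferon response, like Il15 and Il18, were mostly lower in the KO libraries. Il15 is known to be induced by interferons. Of 24 listed interferon response genes 23 were tested, 22 of them had a log2 fold change below 0, and the median was -1.37, against 0.04 over all genes. The unadjusted p was under 0.05 for 9 of the 23, all lower in KO, against 247 of the 12418 genes in this direction. The edgeR quasi-likelihood test called none of them, the DESeq2 Wald test called 6 and the edgeR exact test 3, all lower in KO, against 45 and 30 of all genes in this direction. Their summed level was 465 and 760 CPM in WT against 306 and 354 CPM in KO, and their part in the values of Il15 and Il18 was not tested.

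Tgfb1 (chr7:25687002-25705077, plus strand) encodes TGF-beta 1, which restrains macrophage activation and promotes matrix formation. It had counts of 1468 and 2166 for WT and of 2242 and 2960 for KO, or 90.4 and 136 CPM against 120 and 150 CPM. It was the only tested cytokine gene that was higher in KO within both numbers, at 1.33 (1.24 to 1.42) and 1.11 (1.05 to 1.17) of WT. Its groups overlapped, since WT replicate 2 exceeded KO replicate 1, and the log2 fold change was 0.26 (SE 0.30, interval -0.50 to 1.01, adjusted p = 0.963). Without WT replicate 1 the value was -0.0027, and with a gene length correction 0.15. None of the 9 genes was higher in both KO libraries than in both WT libraries, which 20.0% of all tested genes were.

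Il10 (chr1:131019845-131024974, plus strand), the gene of an anti-inflammatory cytokine, was close to the limit of detection. It had counts of 4 and 4 for WT and of 6 and 5 for KO, where a count of 0 would allow a level of up to 0.188 CPM in WT and 0.161 CPM in KO. Its levels of 0.246 and 0.251 CPM in WT against 0.322 and 0.254 CPM in KO were not tested, and no difference was detectable at this depth (KO over WT 1.31 with interval 0.310 to 6.29 in number 1, and 1.01 with interval 0.218 to 5.10 in number 2). Unlike Tnf and Il1b, it was as low in the libraries numbered 2 as in those numbered 1.

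Across the 9 tested genes 8 had a pooled log2 fold change below 0 and 1 above, with a median of -0.72, against 0.04 over all genes. The genes were chosen with earlier results of these data known, so this contrast with all genes is descriptive only. The edgeR quasi-likelihood test called none of the 9 (adjusted p under 0.05 and absolute log2 fold change over 1) and none of the 12418 genes (0.0%). Its model leaves out the replicate number, and it called none of the changed genes simulated with the measured difference between numbers. The lack of calls, here and in the gene lists, therefore does not show that the genotypes were alike. At the same limits the DESeq2 Wald test called 181 of all genes and the edgeR exact test 174, and both called 0 of the 9. At an unadjusted p under 0.05 there were 823 of all genes and none of the 9, and the smallest adjusted p of any gene was 0.0863. Within both numbers KO was lower than WT for 6 of the 9 genes (Il1a, Il1rn, Tnf, Il6, Il15 and Il18) by the sign of the ratio alone, against 29.0% of all genes. In number 1 the ratios of Il1a, Il1b, Il6 and Osm were within the counting error. The median log2 ratio of KO to WT was -0.91 in number 2, against -0.0013 over all genes. In number 1 it was -0.20, against 0.11, and this median is the value of Il6, from 2 counts on each side. KO was more than 2-fold lower in number 2 for 4 of the 9 (Il1b, Il1a, Il6 and Osm), against 2.59% of all genes. In number 1 the 7 genes with more than 3 counts per library had ratios of 0.563 to 1.33.

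**Figure D3:**
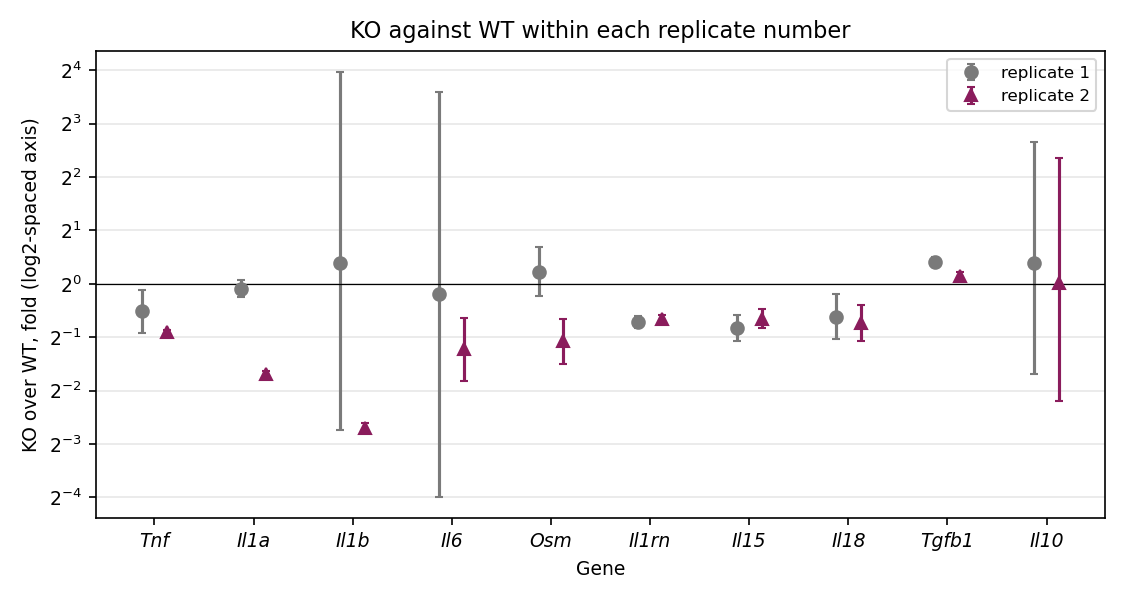
KO over WT fold of each cytokine gene within replicate 1 (grey circles) and within replicate 2 (purple triangles), on a log2-spaced axis; bars are 95% counting intervals and the line at 1 is no difference. Il1rn, Il15 and Il18 lie below 1 at a similar depth in both numbers, while Il1a, Il1b and Osm lie far below 1 in replicate 2 and near 1 in replicate 1, with wide bars for Il1b, Il6 and Il10 in replicate 1.

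Of 22 listed receptor chains and binding proteins 20 were tested, with 11 above and 9 below 0 and a median of 0.09. At an unadjusted p under 0.05 there were 3 higher and 1 lower in KO, against 576 and 247 of the 12418 genes. The quasi-likelihood test called none, while the DESeq2 Wald test and the edgeR exact test each called 2, both higher in KO, against 136 and 144 of all genes in this direction. Both KO libraries were above both WT libraries for 5 of the 20, against 20.0% of all genes, and below for 3, against 16.9%, so non-overlap was about as common as over all genes. Il1r1, the signalling receptor of IL-1, had counts of 106 and 178 for WT and of 600 and 578 for KO (log2 fold change 1.80, SE 0.33, adjusted p = 0.263). Osmr, the OSM receptor chain, had counts of 38 and 64 for WT and of 206 and 292 for KO (2.02, SE 0.39, adjusted p = 0.276). Tgfbr3, a TGF-beta co-receptor, had counts of 23 and 26 for WT and of 67 and 61 for KO, and Il1rap, the partner chain of Il1r1, and Tgfbr1 also did not overlap. Il18bp, the soluble protein that neutralises IL-18, had counts of 156 and 191 for WT and of 79 and 114 for KO (log2 fold change -1.11, SE 0.31, adjusted p = 0.479). Sigirr, an inhibitory receptor of the IL-1 family, and Il18r1 were also below WT, at 6 to 25 counts per library. The shared gp130 chain Il6st (74.7 and 73.6 CPM in WT against 111 and 74.4 CPM in KO) and the main TNF receptor Tnfrsf1a (93.3 and 109 CPM in WT against 96.2 and 109 CPM in KO) overlapped.

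Tnfrsf1b, the second TNF receptor, had counts of 6176 and 41432 for WT and of 8778 and 47009 for KO. It was the only chain of the list more than 4-fold higher in number 2 in both genotypes, against 1.81% of all genes. Its KO over WT log2 ratio within number 2 was -0.12, where that of Tnf was -0.91. The IL-6 receptor chain Il6ra went the other way, at 37.2 and 17.8 CPM in WT against 45.0 and 18.8 CPM in KO.

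Markers of stromal cells, which express Il1r1, Osmr and Tgfbr3, also summed to higher levels in KO. All 12 stromal markers had counts and all 12 had a log2 fold change above 0, 10 of them at an unadjusted p under 0.05, against 6776 and 576 of the 12418 genes. Their summed level was 147 and 210 CPM in WT against 587 and 562 CPM in KO, with Fn1, Dcn, Pdgfra and Col1a2 the most abundant, and their part in the receptor values was not tested. In bulk RNA, more cells of a type and more RNA per cell cannot be told apart. Mast cell and basophil markers summed to lower levels in KO (118 and 107 CPM in WT, 46.6 and 56.0 CPM in KO, 11 of 12 with counts, Mcpt8 at 0), as did B cell markers (43.8 and 47.7 CPM against 23.8 and 27.4 CPM, 9 of 9 with counts). Neutrophil markers summed to 92.8 and 143 CPM in WT against 85.1 and 97.9 CPM in KO, 11 of 13 with counts, with Elane and Mpo at 0 and Csf3r the most abundant. Within this list 2 genes, named after their values were seen, were far lower in KO than the sum shows: S100a9 had counts of 91 and 82 for WT and of 2 and 1 for KO, and Retnlg counts of 99 and 71 for WT and of 3 and 9 for KO (edgeR adjusted p = 0.216 for each). Dendritic cell markers summed to 437 and 599 CPM in WT against 466 and 537 CPM in KO (10 of 10 with counts), and T and NK cell markers to 4.19 and 3.64 CPM against 2.36 and 2.79 CPM (11 of 11 with counts). None of these sums differed between the numbers by the folds of Tnf, Il1b or Il6, and their part in the cytokine values was not tested.

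Of 21 listed genes that process and release the cytokines 20 were tested, and the median log2 fold change was -0.05. The quasi-likelihood test called none, the DESeq2 Wald test 2 and the edgeR exact test 1, all higher in KO, against 136 and 144 of all genes in this direction. At an unadjusted p under 0.05 in edgeR there were 2 of the 20, Nrros and Ltbp2, against 823 of the 12418 genes. Nrros, which anchors latent TGF-beta 1 on macrophages, had counts of 1435 and 1510 for WT and of 3354 and 4922 for KO (log2 fold change 1.23, SE 0.27, adjusted p = 0.304). Ltbp2, a latent TGF-beta binding family member of the matrix, had counts of 8 and 17 for WT and of 89 and 92 for KO (2.59, SE 0.47, adjusted p = 0.264). The stromal marker sums given above were higher in the same libraries, and their part in the value of Ltbp2 was not tested. The next by p were Ltbp3 (0.47, SE 0.22) and Rhbdf1 (1.14, SE 0.68), a partner of the protease that sheds TNF. Casp4, named after its values were seen, encodes the caspase-11 of the non-canonical inflammasome. It had counts of 436 and 2614 for WT and of 301 and 2471 for KO. It was the only gene of this list more than 4-fold higher in number 2 in both genotypes, against 1.81% of all genes.

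None of the signalling genes downstream of the receptors had an unadjusted p under 0.05 in edgeR, against 823 of the 12418 genes. All 30 were tested, and the median log2 fold change was 0.13. The quasi-likelihood, DESeq2 Wald and edgeR exact tests called 0 of the 30, against 0, 181 and 174 of all genes. The genes with the smallest p were Tab1 (0.35, SE 0.25), Smad3 (0.59, SE 0.43), Smad7 (0.54, SE 0.40) and Map3k7 (0.35, SE 0.26), which belong to the kinase complex below IL-1 and TNF receptors and to the TGF-beta pathway. Socs3 and Jak2, named after their values were seen, were the only 2 of the 30 more than 4-fold higher in number 2 in both genotypes. Over all tested genes this share was 1.81%. Socs3, a feedback inhibitor of gp130 signalling, had counts of 95 and 2513 for WT and of 143 and 1492 for KO, with a KO over WT log2 ratio of 0.39 in number 1 and -1.06 in number 2.

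Regulators of AU-rich mRNAs, which set the lifetime of cytokine mRNAs, had a median log2 fold change of 0.09. All 17 were tested, with 12 above and 5 below 0, against 6776 of the 12418 genes above 0. The quasi-likelihood, DESeq2 Wald and edgeR exact tests called 0 of the 17, against 0, 181 and 174 of all genes. Within both numbers 6 of the 17 were higher in KO, against 4469 of the 12418 genes. Arid5a, a protein that stabilises Il6 mRNA, had counts of 140 and 197 for WT and of 112 and 101 for KO (log2 fold change -0.91, SE 0.32, adjusted p = 0.660, unadjusted p in edgeR 0.0325). The next by p, Tia1 (0.37, SE 0.24), Cnot1 (0.34, SE 0.24) and Zfp36l1 (0.62, SE 0.51), were above 0. Zc3h12a and Zc3h12c, named after their values were seen, are related RNases of which Zc3h12a degrades Il6 mRNA. Zc3h12a had counts of 156 and 1425 for WT and of 211 and 1311 for KO, and Zc3h12c counts of 68 and 1653 for WT and of 162 and 2091 for KO. Both, like Tnf, were more than 4-fold higher in number 2 in both genotypes, as were 1.81% of all tested genes.

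Of 59 other listed cytokine genes 29 were tested, with 13 above and 16 below 0 and a median of -0.34. These 3 tests called 0 of the 29, against 0, 181 and 174 of all genes. Within both numbers 12 of the 29 were lower in KO, against 29.0% of all genes. At an unadjusted p under 0.05, Tgfb3 was higher in KO (14 and 10 counts in WT, 110 and 38 in KO), and Ltb, a lymphotoxin chain (41 and 37 against 23 and 19), and Tnfsf18 (14 and 14 against 6 and 6) were lower, against 576 higher and 247 lower of all genes. Mif, an abundant cytokine of resting macrophages, had counts of 2128 and 1675 for WT and of 1367 and 1614 for KO (log2 fold change -0.61, SE 0.24, adjusted p = 0.758). In both genotypes 10 of the 29 were more than 4-fold higher in number 2, against 1.81% of all genes. The filter on low counts helped to fix this count, since some of the 10 passed it only through the libraries numbered 2. They include, chosen after their values were seen, the IL-12 subunits Il12a (0 and 121 counts in WT, 0 and 82 in KO) and Il12b (1 and 241 in WT, 0 and 336 in KO). Il27, a related subunit, had counts of 13 and 127 for WT and of 5 and 94 for KO. Within number 2, Il12b was at 15.1 CPM in WT and 17.1 CPM in KO, while Tnf, Il1a, Il1b and Il6 were lower in KO. Il12a and Il27 were also lower in KO there, at log2 ratios of -0.86 and -0.74.

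**Figure D4:**
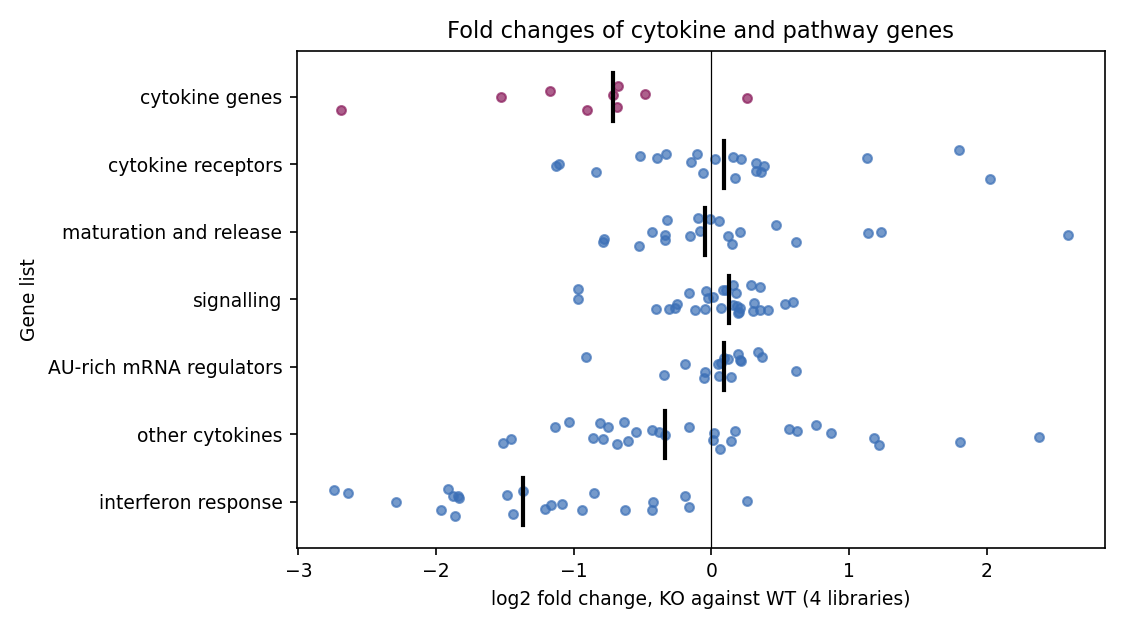
log2 fold change of KO against WT over the 4 libraries (x axis) for each tested gene of the cytokine genes and of 6 lists of pathway genes; a point is a gene and a black bar the median of its list. The medians lie at -0.72 for the cytokine genes, between -0.34 and 0.13 for the receptors, release, signalling, AU-rich and other cytokine lists, and at -1.37 for the interferon response.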

How the data were processed

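Total RNA of 4 macrophage cultures (WT and KO, 2 libraries each) was sequenced on an Illumina instrument. Per the study's methods the authors used Seqtk to filter reads, HISAT2 2.0.4 to align them and StringTie 1.3.3b to count fragments per gene. They deposited raw counts for 34745 genes, not normalised, with an FPKM value beside each count, which the authors scaled by gene length and library total. The submitters' processing notes name mm39, but 27686 of the 34267 gene identifiers found in GENCODE M21 had the same start and end there, as did 8 of the 10 cytokine genes (not Il15 and Il18), so gene positions are those of the file and are taken as GRCm38. Use of strand in counting is not given in the sources used here, so antisense genes can share counts.

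The counts were tested with edgeR 4.0.16 (R 4.3.3): filterByExpr (minimum count 10, minimum total 15), TMM scaling (factors 0.942 to 1.11), genotype as the only term, glmQLFit and glmQLFTest, two-sided, Benjamini-Hochberg adjustment over 12418 genes. Calls needed an adjusted p below 0.05 together with a log2 fold change beyond 1 in either direction. Standard errors and 95% intervals of log2 fold changes came from the quasi-likelihood F statistic. Folds between single libraries are ratios of CPM with exact (Clopper-Pearson) 95% intervals, log2 ratios had 0.5 counts added, and a count of 0 allows up to 3 counts. Nothing says that libraries of a genotype came from separate animals, so p-values measure only the spread between these libraries.

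The cytokine genes and gene lists were chosen with earlier results of these data known. Receptors were all open to naming, from the other pathway lists up to 4 genes with the smallest unadjusted p, from marker lists the most abundant and those at 0. The fit was tested on simulated data: it recovered the changed genes when replicate numbers were alike, but called none of them when the measured difference between numbers was simulated. Alternatives were DESeq2 size factors, no filter, a replicate block, a gene length correction, both together, the DESeq2 Wald test (DESeq2 1.42.0), the edgeR exact test, no minimum fold change, and leaving out each library. No sample was left out.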

Additional observations from a re-analysis of the deposited data

How the results depend on the processing

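Of the 9 tested cytokine genes none was called under DESeq2 size factors, without the filter, with a gene length correction, with the DESeq2 Wald test, with the edgeR exact test, without a minimum fold change, or without any single library. No gene at all was called under DESeq2 size factors, without the filter, with the gene length correction or without a minimum fold change. Staying uncalled there therefore says nothing about these 9 genes. The number of all genes called rose from 0 to 181 with the DESeq2 Wald test (136 higher, 45 lower) and to 174 with the exact test (144 and 30).

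The libraries share replicate numbers. Libraries of the same number deviated together from the mean of their genotype (correlation 0.710), but with 2 pairs and no label saying what the number marks, pairing is not established. Adding the replicate block gave 664 called genes, 494 of them higher and 170 lower in KO, and the biological coefficient of variation fell from 0.343 to 0.169. With the block and the length correction together 367 were called (266 higher, 101 lower). Of the cytokine genes 1, Il1b, was then called, at log2 fold changes of -2.53 (edgeR adjusted p = 7.884e-12) and -2.57 (adjusted p = 0.00387), and 5 had an adjusted p under 0.05 with the block at any fold change. With 2 and 3 counts of Il1b in number 1, its call rested almost wholly on the libraries numbered 2. Receptors called were 4 with the block, 2 with both, 2 with DESeq2 and 2 with the exact test. Release genes called were 2, 1, 2 and 1, other cytokines 2 with the block and 1 with both, and AU-rich regulators 1 with both. The cause of these differences was not tested.

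Leaving out WT replicate 2 turned the log2 fold change positive for Il1a (1.53), Il1b (7.95), Il1rn (0.024), Tnf (5.54), Il6 (2.99) and Osm (0.022), leaving out KO replicate 1 did so for Tnf (0.09), and leaving out WT replicate 1 turned that of Tgfb1 to -0.0027. Over the fits without a library the log2 fold change ranged from -3.18 to 1.53 for Il1a, -10.3 to 7.95 for Il1b, -1.46 to 0.024 for Il1rn, -6.99 to 5.54 for Tnf, -4.38 to 2.99 for Il6, -0.87 to 0.022 for Osm, -0.0027 to 0.55 for Tgfb1, -1.24 to -0.34 for Il15 and -0.95 to -0.38 for Il18. In such a fit the lone library is assumed to vary like the other genotype. The genotype with the lone library also lacks a replicate number, so the difference between the numbers enters the value. For Tnf, Il1a, Il1b and Il6, far higher in number 2, the sign without WT replicate 2 therefore says nothing about genotype. The other 28 of 36 values without a library, and all 63 under the other alternatives, kept their sign. Since no gene at all was called without a library, staying uncalled there says nothing about stability. The gene length correction moved Il18 from -0.68 to -0.30 and Tgfb1 from 0.26 to 0.15, the block with this correction gave -0.26 and 0.16, and Il1a was -0.91 with the block and -0.81 with both. Il1b and Il6 had 2 or 3 counts in the libraries numbered 1 and Il10 at most 6 in any, so differences there were not measurable at this depth.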
